A study of Mus musculus with 5 samples.

Results

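The nuclear factor I (NFI) and nuclear factor of activated T cells (NFAT) genes were followed in stem cells sorted from hair follicles of mouse skin. The set was chosen by gene symbol and holds 4 NFI genes, Nfia, Nfib, Nfic and Nfix, and 5 NFAT genes, Nfatc1, Nfatc2, Nfatc3, Nfatc4 and Nfat5. All 9 were found among the 55357 genes of the table, and all 9 were among the 15665 genes with enough reads to test. RNA from 3 PRC1 i2KO libraries (replicates 1, 2 and 3; K15-CrePR1:Ring1a-/-, Ring1bflox/flox) was set against that of 2 Control libraries (replicates 1 and 3; Ring1a-/-, Ring1bflox/flox). PRC1 is the Polycomb complex that places ubiquitin on histone H2A, and Ring1a and Ring1b are its catalytic subunits. Mice of either group were Ring1a-/- by their label and had 1% RU-486 put on the skin for 10 days from postnatal day 50, and cells positive for EpCAM and CD34, high in α6-integrin and negative for Sca1 were sorted at postnatal day 75. K15-CrePR1 is a Cre recombinase under a keratin 15 promoter that RU-486 switches on, so it acts only where that promoter is active, and the groups differ in Cre as well as in Ring1b. The labels do not tell whether libraries came from separate animals, so p-values measure only the spread between these libraries, which may be technical.

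NFI proteins bind DNA as dimers, and in mouse follicle stem cells NFIB and NFIX are known to keep the chromatin of stem cell genes open. NFATc1 to NFATc4 stay phosphorylated in the cytoplasm until calcium activates the phosphatase calcineurin, which sends them to the nucleus. NFATc1 is known for holding bulge stem cells quiescent in mice, while NFAT5 lacks calcineurin control and answers to hypertonic stress.

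Libraries held 8270419 to 32463173 estimated reads. Rnf2, the gene of Ring1b, had 46.6 to 50.2 CPM (reads scaled to library size) in PRC1 i2KO and 57.7 to 67.9 CPM in Control (log2 fold change -0.37, edgeR adjusted p = 0.0363); such a gene sum also holds reads outside any deleted exon, and the deleted exons are not stated in the labels. The same limit holds for Ring1, the gene of Ring1a, which had 19.6 to 28.6 CPM in PRC1 i2KO and 27.5 to 30.3 CPM in Control. CD34 was part of the sort, yet its transcript Cd34 was far lower in PRC1 i2KO cells, at 11.0, 12.3 and 37.2 CPM in the PRC1 i2KO libraries (replicates 1, 2 and 3), against 1548 and 1697 CPM in Control replicates 1 and 3. Summed TPM (a scale corrected for gene length as well) of 8 bulge and basal markers was 12572 to 17606 in PRC1 i2KO and 34141 to 37179 in Control, with the highest PRC1 i2KO value in replicate 3. Markers of the upper follicle (7 genes) summed to 16005 to 16905 TPM in PRC1 i2KO and 734 to 1054 TPM in Control, and those of the sebaceous gland (7 genes) to 2237 to 2688 TPM in PRC1 i2KO and 222 to 255 TPM in Control. Markers of suprabasal epidermis (8 genes) summed to 1239 to 1959 TPM in PRC1 i2KO and 445 to 513 TPM in Control, and those of cycling cells (7 genes) to 308 to 390 TPM in PRC1 i2KO and 112 to 142 TPM in Control. All genes of these 4 lists rose (edgeR adjusted p under 0.05), and Epcam rose while Cd34, Krt15, Lgr5, Postn and Krt5 fell among the 8 bulge and basal markers. Endothelial markers summed to 0 to 3.28 TPM in PRC1 i2KO and 0.63 to 0.88 TPM in Control. Muscle and pericyte markers summed to 7.53 to 13.9 TPM in PRC1 i2KO and 2.14 to 2.33 TPM in Control (without Tagln the groups overlapped). Of these 6 markers 4 were tested, of which Tagln and Rgs5 rose (edgeR adjusted p under 0.05) and 2 did not pass. Rgs5 had 21, 79 and 11 reads in PRC1 i2KO replicates 1, 2 and 3 and 0 reads in both controls. Of 6 dermal papilla markers Wif1 alone had more than traces, and the other 5 summed to 0.06 to 0.24 TPM in PRC1 i2KO and 0 to 0.2 TPM in Control. In such bulk samples, fewer cells of a type and less RNA per cell cannot be told apart, and the part of these shifts in the results on NFI and NFAT genes was not tested.

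Transcripts of 4 members fell in PRC1 i2KO cells, those of Nfat5, Nfib, Nfatc4 and Nfatc1, by 1.77-fold to 2.94-fold. Transcripts of Nfatc2 rose 3.84-fold, at a low level in both groups, and those of Nfia rose less, by 0.58 on the log2 scale, while Nfic, Nfix and Nfatc3 did not pass the test. Calls are those of edgeR's quasi-likelihood test at a Benjamini-Hochberg adjusted p under 0.05, which 33.9% of all genes tested passed, 15.1% downward and 18.8% upward. Members called lower numbered 2 when Control replicate 3 was dropped, and 5 when PRC1 i2KO replicate 3 was. The median log2 fold change was -0.27 over the 9 members and -0.01 over all genes tested. In CPM, the PRC1 i2KO and Control libraries did not overlap in 6 of the 9 members, as in 59.5% of all genes tested. On TPM, Nfix, Nfic and Nfatc3 also lay lower in every PRC1 i2KO library than in either control. The share of all genes without overlap on TPM was not counted.

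**Figure D1:**
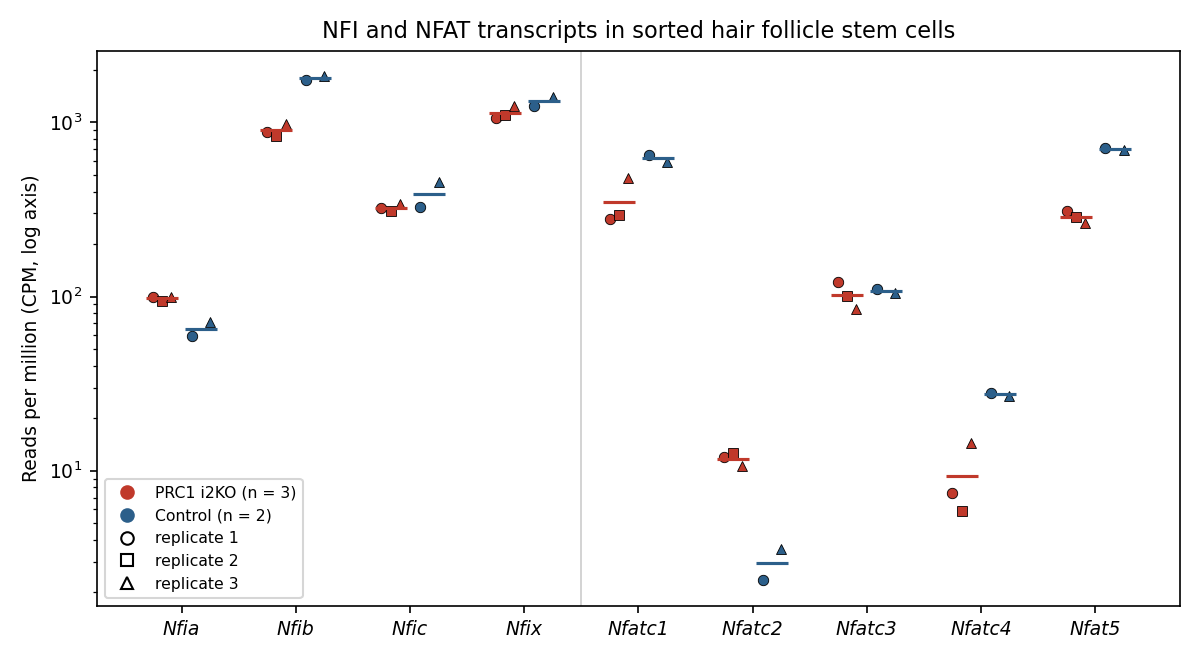
CPM (log axis) of the 9 NFI and NFAT genes in each library; symbols are libraries, with PRC1 i2KO (n = 3) left of Control (n = 2), and lines are group means. Nfib, Nfatc1, Nfatc4 and Nfat5 lie lower in every PRC1 i2KO library, Nfia and Nfatc2 lie higher, and PRC1 i2KO replicate 3 lies nearest to Control for Nfatc1 and Nfatc4.

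Among NFI genes, Nfix and Nfib were the main transcripts. Nfib (ENSMUSG00000008575), which in mouse follicle stem cells also restrains neighbouring melanocyte stem cells, had 886, 839 and 978 CPM in PRC1 i2KO replicates 1, 2 and 3, against 1762 and 1849 CPM in Control replicates 1 and 3. The highest PRC1 i2KO library thus lay well under the lowest Control library. Its log2 fold change was -1.003 (SE 0.11, 95% interval -1.25 to -0.76, edgeR adjusted p = 0.000117), a 2.00-fold fall, and on dropping single libraries it ranged over -1.06 to -0.95 with an adjusted p of at most 0.00408.

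Nfia (ENSMUSG00000028565), known best from glial and fat cell development, moved the other way. It had 99.6, 94.2 and 99.97 CPM in PRC1 i2KO replicates 1, 2 and 3, against 59.0 and 71.0 CPM in Control replicates 1 and 3. The 3 PRC1 i2KO libraries were close together and all above the higher control. The log2 fold change was 0.58 (SE 0.11, 95% interval 0.33 to 0.84, edgeR adjusted p = 0.00329) and ranged over 0.46 to 0.73 when single libraries were dropped. On the deposited TPM the call of Nfia depended on the scale, with limma adjusted p = 0.0498 on log2(TPM + 1), 0.0501 on log2(TPM + 0.1) and 0.0864 with no filter on low values.

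Nfix (ENSMUSG00000001911), the partner of Nfib in follicle stem cells, had 1065, 1104.5 and 1243 CPM in PRC1 i2KO replicates 1, 2 and 3, against 1239 and 1401 CPM in Control replicates 1 and 3. In CPM the groups overlapped slightly, since PRC1 i2KO replicate 3 lay above Control replicate 1. They did not overlap on TPM, at 391.69, 415.06 and 482.01 in the PRC1 i2KO libraries and 533.45 and 604.49 in the controls. Nfix did not pass (log2 fold change -0.22, 95% interval -0.48 to 0.05, edgeR adjusted p = 0.191), although without PRC1 i2KO replicate 3 it was called at -0.28 (adjusted p = 0.0316). Nfic (ENSMUSG00000055053), known for its role in tooth root formation, had 324, 309.8 and 339 CPM in PRC1 i2KO replicates 1, 2 and 3, against 327 and 453 CPM in Control replicates 1 and 3. The difference hung on the controls, which were far apart: the log2 fold change was -0.27 (95% interval -0.58 to 0.04, edgeR adjusted p = 0.166), -0.48 without Control replicate 1 (adjusted p = 0.0222) and -0.01 without Control replicate 3 (adjusted p = 0.96).

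The make-up of the family moved with Nfib and Nfia. Summed over the 4 NFI genes, the level was 777 ± 82.1 TPM in PRC1 i2KO (SD, n = 3) and 1176 ± 124 TPM in Control (SD, n = 2). Nfix took 54.5%, 56.0% and 55.3% of that sum in PRC1 i2KO replicates 1, 2 and 3, against 49.0% and 47.8% in Control replicates 1 and 3. Nfib took 26.3%, 25.3% and 26.4% in the PRC1 i2KO libraries, against 37.9% and 36.0% in the controls. The share of Nfia was 5.20%, 5.84% and 5.03% in PRC1 i2KO and 2.13% and 2.50% in Control, so the shares of Nfix, Nfib and Nfia did not overlap between the groups, whereas that of Nfic did. Each share is a part of 1 sum, so a lower share of Nfib raises the others.

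**Figure D2:**
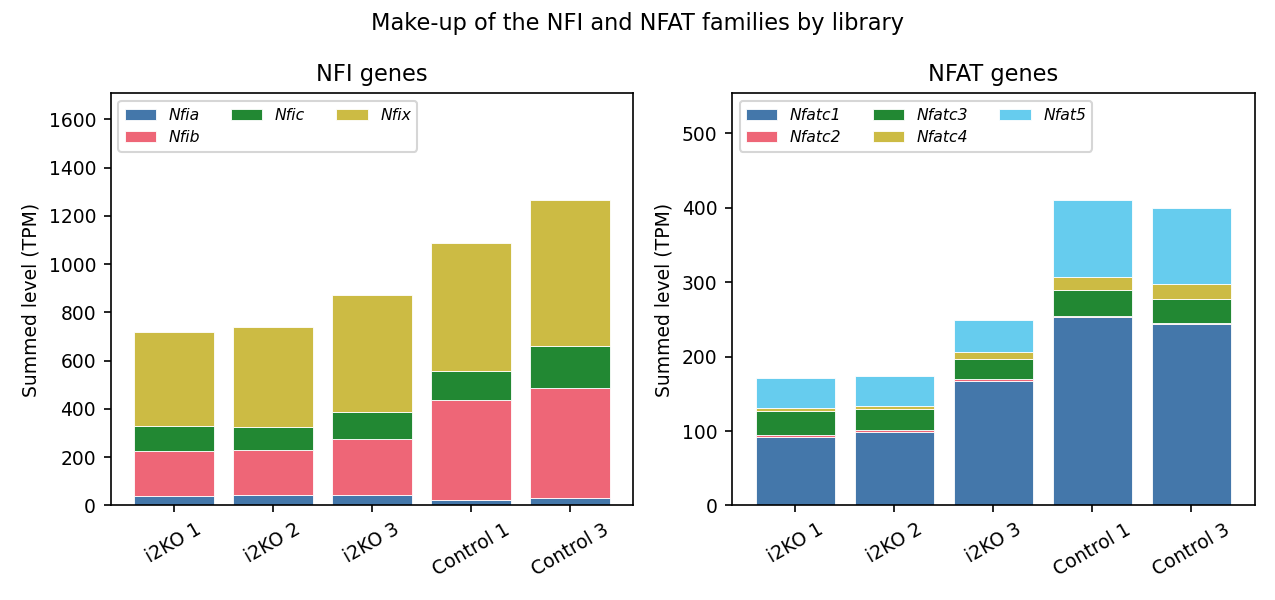
Summed TPM of the NFI genes (left) and the NFAT genes (right) in each library, stacked by gene, with the 3 PRC1 i2KO libraries left of the 2 Control libraries. The NFI sum is 719 to 871 TPM in PRC1 i2KO and 1089 to 1264 TPM in Control, and the NFAT sum is 171 to 249 TPM in PRC1 i2KO and 399 to 410 TPM in Control.

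Nfatc1 (ENSMUSG00000033016) had the highest TPM of the NFAT genes in every library, although Nfat5 had more CPM, which is not corrected for length, in both controls and PRC1 i2KO replicate 1. Nfatc1 had 278, 294 and 482 CPM in PRC1 i2KO replicates 1, 2 and 3, against 653 and 591 CPM in Control replicates 1 and 3. All PRC1 i2KO libraries lay below both controls, but replicate 3 lay nearer to the lower control than to replicate 1 of its own group. The log2 fold change was -0.82 (SE 0.25, 95% interval -1.44 to -0.21), at the threshold (edgeR adjusted p = 0.0496). Without PRC1 i2KO replicate 3 it was -1.12 with an adjusted p of 2.07e-06, while leaving out any other library gave -0.67 to -0.89 and ended the call (adjusted p from 0.0779 to 0.213). PRC1 i2KO replicate 3 was also the library of that group with the most Cd34.

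Nfat5 (ENSMUSG00000003847) had 311, 286 and 264 CPM in PRC1 i2KO replicates 1, 2 and 3, against 715 and 696 CPM in Control replicates 1 and 3. The groups were tight and far apart, and PRC1 i2KO replicate 3, the highest of its group for Nfatc1, was the lowest for Nfat5. With a log2 fold change of -1.30 (SE 0.10, 95% interval -1.53 to -1.06, edgeR adjusted p = 1.77e-05), Nfat5 had the smallest adjusted p of the 9 members, and its value stayed between -1.35 and -1.24 whichever library was left out.

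Nfatc4 (ENSMUSG00000023411), known for its roles in heart and neurons, had 7.46, 5.88 and 14.5 CPM in PRC1 i2KO replicates 1, 2 and 3, against 27.9 and 27.0 CPM in Control replicates 1 and 3. It was low in all PRC1 i2KO libraries, least so in replicate 3. The log2 fold change was -1.56 (SE 0.35, edgeR adjusted p = 0.0123). It lay at -2.06 without PRC1 i2KO replicate 3, and dropping Control replicate 3 ended the call (adjusted p = 0.054). Of 8 markers of dermal fibroblasts, 5 were tested, of which Col1a1, Col1a2 and Pdgfra fell and Dcn rose. The summed level of the 8 was 11.4 to 14.8 TPM in PRC1 i2KO and 26.6 to 37.6 TPM in Control; without Col1a2 the groups overlapped, at 2.84 to 6.06 TPM in PRC1 i2KO and 4.83 to 9.77 TPM in Control. Mfap5 was at 0 reads in all libraries and Lum at 0 in all but PRC1 i2KO replicate 1. Their part in the result was not tested.

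By TPM, though not always by reads, Nfatc2 (ENSMUSG00000027544), a major NFAT protein of T cells, was the rarest member in every library. It had 115, 268 and 202 reads in PRC1 i2KO replicates 1, 2 and 3, against 19 and 114 reads in Control replicates 1 and 3, which is 11.9, 12.6 and 10.6 CPM in PRC1 i2KO and 2.34 and 3.55 CPM in Control. The groups did not overlap, and the log2 fold change was 1.94 (SE 0.30, 95% interval 1.27 to 2.62, edgeR adjusted p = 0.000928). On dropping single libraries it ranged over 1.72 to 2.32, the highest without Control replicate 3, and the call held each time (adjusted p at most 0.00784). Of 13 immune markers 8 were tested, of which Cd74 and H2-Ab1, which present antigen, rose and none fell. The 13 summed to 157 to 213 TPM in PRC1 i2KO and 52.6 to 69.6 TPM in Control. Cd74 and H2-Ab1 made up most of each sum. T cell genes had few reads, and several had more in PRC1 i2KO: Lck, a T cell kinase gene, had 15, 29 and 13 reads in PRC1 i2KO replicates 1, 2 and 3, against 0 and 11 reads in Control replicates 1 and 3, and did not pass (edgeR adjusted p = 0.121). Cd3e had 3, 4 and 3 reads in the PRC1 i2KO libraries and 1 read in each control, Cd3g had 0, 4 and 6 reads in the PRC1 i2KO libraries and 0 in both controls, and Cd3d had 0 reads in all libraries. Cd2 had 0, 2 and 5 reads in the PRC1 i2KO libraries and 0 and 5 in the controls, and Cd52, of lymphocytes and other white blood cells, had 2, 25 and 7 reads in the PRC1 i2KO libraries and 1 and 0 in the controls. Ptprc, which marks all white blood cells, had 0.207, 0.329 and 1.16 CPM in PRC1 i2KO replicates 1, 2 and 3, against 0.246 and 0.871 CPM in Control replicates 1 and 3. The part of immune cells in the result was not tested.

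Nfatc3 (ENSMUSG00000031902), which acts in T cell development, had 120 CPM in PRC1 i2KO replicate 1, 100.8 CPM in replicate 2 and 84.3 CPM in replicate 3, against 111 and 104 CPM in Control replicates 1 and 3. In CPM the controls lay inside the range of the PRC1 i2KO libraries. On TPM they lay just above it, at 35.83 and 32.14, against 31.89, 27.44 and 25.77 in PRC1 i2KO replicates 1, 2 and 3. Nfatc3 did not pass (log2 fold change -0.08, 95% interval -0.41 to 0.24, edgeR adjusted p = 0.697), and its sign turned without PRC1 i2KO replicate 3 (0.04). Its exons overlap those of Esrp2, a splicing factor gene on the opposite strand, in the GENCODE annotation M21. Esrp2 averaged 174 CPM in PRC1 i2KO and 89.3 CPM in Control (log2 fold change 0.96, edgeR adjusted p = 0.000167). Whether the authors' counting used strand is not given in the sources used here, so reads of the shared stretch may be those of either gene.

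**Figure D3:**
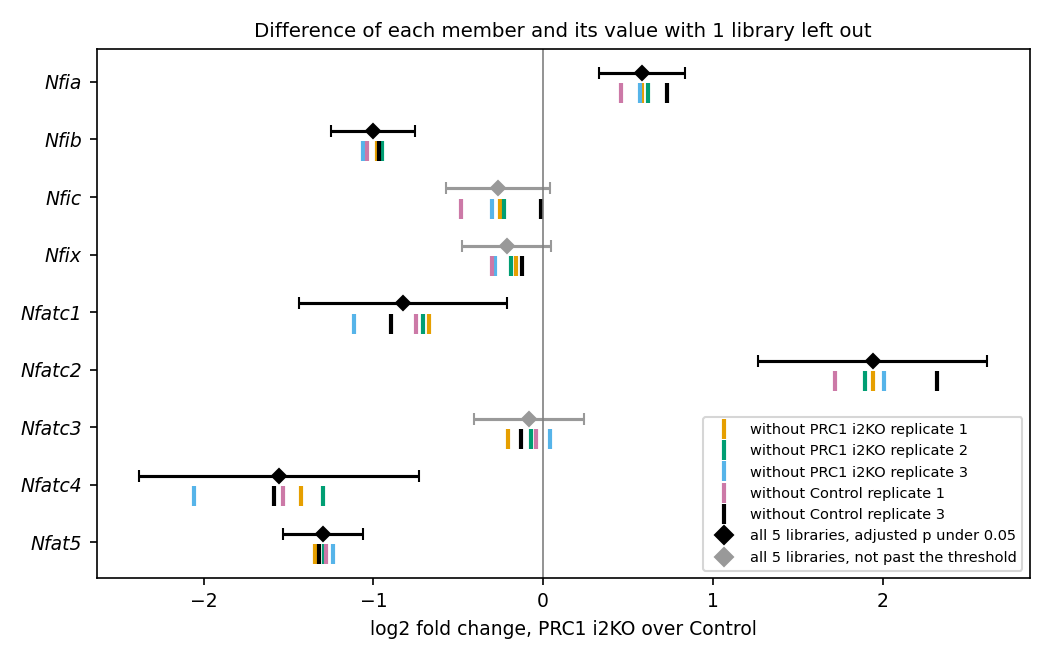
Log2 fold change (PRC1 i2KO over Control) of each member: diamonds give the value from all 5 libraries with its 95% interval, and ticks give the value with 1 library left out. Nfib and Nfat5 keep nearly the same value each time, while Nfatc1 and Nfatc4 move furthest down, to -1.12 and -2.06, without PRC1 i2KO replicate 3.

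As a family, the 5 NFAT genes summed to 198 ± 44.4 TPM in PRC1 i2KO (SD, n = 3) and 405 ± 7.74 TPM in Control (SD, n = 2). Nfatc1 took 54.0%, 57.0% and 67.4% of that sum in PRC1 i2KO replicates 1, 2 and 3, against 61.8% and 61.2% in Control replicates 1 and 3, so its share overlapped between the groups. The share of Nfatc3, at 18.6%, 15.8% and 10.3% in the PRC1 i2KO libraries and 8.74% and 8.05% in the controls, was higher in each PRC1 i2KO library than in any control, although the level of Nfatc3 itself did not pass the test. Nfatc2 stayed the least abundant NFAT transcript, at 1.05% to 1.80% of the sum in PRC1 i2KO and 0.149% and 0.233% in Control.

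Set in order of TPM, PRC1 i2KO cells held Nfix (430 ± 46.9), Nfib (202 ± 24.0), Nfatc1 (120 ± 41.9), Nfic (104 ± 10.4), Nfia (41.5 ± 3.56), Nfat5 (41.0 ± 1.15), Nfatc3 (28.4 ± 3.16), Nfatc4 (6.01 ± 3.99) and Nfatc2 (2.86 ± 0.255; SD, n = 3). Neighbours whose libraries overlapped in that order were Nfatc1 with Nfic and Nfia with Nfat5. Control cells held Nfix (569 ± 50.2), Nfib (434 ± 30.5), Nfatc1 (249 ± 6.31), Nfic (146 ± 37.4), Nfat5 (103 ± 0.997), Nfatc3 (34.0 ± 2.61), Nfia (27.4 ± 6.0), Nfatc4 (18.2 ± 1.95) and Nfatc2 (0.77 ± 0.226; SD, n = 2), with no overlap between neighbours. Nfia thus ranked ahead of Nfatc3 in PRC1 i2KO cells and behind it in Control cells.

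Promoters are shown for the 3 NFAT members with the largest fold differences: Nfatc2, which rose, and Nfatc4 and Nfat5, which fell. For 7 of the 9 members a promoter was taken from RefSeq (build GRCm38.p6, whereas the deposited reads were processed on mm39). Nfib and Nfatc1 are not among these 7. The 250 bases before the start are used. Capitals mark the NFAT core, GGAAA on one strand and so TTTCC on the other, and the NFI half-site, which reads TTGGC on one strand and hence GCCAA on the other. No NFAT core shares a letter with an NFI half-site in the sequences shown. The Nfatc2 promoter is at chr2:168601658-168601907 on the minus strand, that of Nfatc4 at chr14:55824545-55824794 on the plus strand, and that of Nfat5 at chr8:107293220-107293469 on the plus strand.
Nfatc2: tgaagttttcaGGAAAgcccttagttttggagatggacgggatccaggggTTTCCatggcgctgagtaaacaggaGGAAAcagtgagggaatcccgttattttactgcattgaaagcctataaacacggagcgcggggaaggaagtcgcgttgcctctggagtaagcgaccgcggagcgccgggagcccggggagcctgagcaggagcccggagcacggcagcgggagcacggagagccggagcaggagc
Nfatc4: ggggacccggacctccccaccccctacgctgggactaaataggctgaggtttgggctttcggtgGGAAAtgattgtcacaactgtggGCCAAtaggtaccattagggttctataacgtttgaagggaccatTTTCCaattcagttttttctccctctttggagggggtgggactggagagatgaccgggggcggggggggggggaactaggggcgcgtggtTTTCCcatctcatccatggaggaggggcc
Nfat5: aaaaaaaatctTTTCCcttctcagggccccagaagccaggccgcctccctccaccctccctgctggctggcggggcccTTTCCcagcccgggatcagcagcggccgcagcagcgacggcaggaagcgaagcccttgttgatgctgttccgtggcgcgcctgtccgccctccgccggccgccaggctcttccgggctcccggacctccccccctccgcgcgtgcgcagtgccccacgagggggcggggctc
The NFAT core is found 3 times before Nfatc2, 3 times before Nfatc4 and 2 times before Nfat5, so all 3 promoters hold it. The NFI half-site is found once before Nfatc4 and not in the other two. Of all 32851 promoters listed, 55.6% hold the NFAT core and 41.5% the NFI half-site, so such matches are common. The full palindrome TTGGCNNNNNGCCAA is in 0.0365% of promoters and in none of the 12 start sites of these 7 members. A second start site of Nfatc2 holds 1 NFAT core and 1 NFI half-site, and the promoters of Nfia and Nfic hold neither. A match in these letters is a description and shows no binding.

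Dividing reads by TPM gives the mean transcript length that the authors' quantification assigned to a gene in each library, here scaled to the library's median gene and to the gene's mean over the 5 libraries. For Nfat5 it was 1.04, 0.967 and 0.882 in PRC1 i2KO replicates 1, 2 and 3, against 1.07 and 1.06 in Control replicates 1 and 3. For Nfatc1 it was 1.02 in each PRC1 i2KO library, against 0.999 and 0.941 in the controls. The groups did not overlap for Nfix, Nfatc1 and Nfat5, 3 of the 8 members with enough reads, where 22.1% of 9908 genes did the same. Over the 5 libraries the length of Nfatc4 varied 1.375-fold and that of Nfia 1.32-fold, against a median of 1.17-fold over these genes. Log2 fold changes in edgeR and on log2(TPM + 1) were still close, at 0.58 and 0.59 for Nfia and -1.56 and -1.59 for Nfatc4. On log2(TPM + 0.1) Nfatc4 was at -1.765. The first 2 scales lay further apart for Nfatc1 (-0.82 and -1.10), Nfic (-0.27 and -0.47) and Nfix (-0.22 and -0.41). Lengths of these varied 1.09-fold, 1.095-fold and 1.02-fold.

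Genes of the calcineurin pathway were read from lists drawn up by their known roles. Of 8 calcineurin and calmodulin genes 7 were tested, of which 2 rose, 1 fell and 4 did not pass, with a median log2 fold change of 0.16. Ppp3ca, a catalytic subunit of calcineurin, had 230, 249 and 246 CPM in PRC1 i2KO replicates 1, 2 and 3, against 193 and 180 CPM in Control replicates 1 and 3 (log2 fold change 0.38, edgeR adjusted p = 0.0156). Ppp3cb, the other broadly expressed catalytic subunit, fell to 52.1 ± 6.12 CPM in PRC1 i2KO (SD, n = 3), against 71.5 ± 5.89 CPM in Control (SD, n = 2; log2 fold change -0.46, adjusted p = 0.0227). The call of Ppp3ca ended on dropping Control replicate 3 (adjusted p = 0.124) or PRC1 i2KO replicate 2 (0.0718), and on the TPM scales. That of Ppp3cb ended on dropping either control (0.136 for replicate 1, 0.0504 for replicate 3) or PRC1 i2KO replicate 2 (0.0549). Calm2, a calmodulin gene, averaged 443 ± 42.1 CPM in PRC1 i2KO (SD, n = 3) and 260 ± 50.3 CPM in Control (SD, n = 2), a log2 fold change of 0.77 (adjusted p = 0.00236).

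Of 10 genes for calcium entry and its triggers, 3 rose, 5 fell and 2 did not pass, with a median of -0.17. Stim1, the calcium sensor of the endoplasmic reticulum, had 195, 203 and 187 CPM in PRC1 i2KO replicates 1, 2 and 3, against 366 and 339 CPM in Control replicates 1 and 3, a 1.81-fold fall (edgeR adjusted p = 0.000143). Orai2, a channel that STIM proteins open, fell 1.72-fold (adjusted p = 0.00109). The receptors that release stored calcium moved apart: Itpr3 fell 1.84-fold, at 784 ± 122 CPM in PRC1 i2KO (SD, n = 3) and 1444 ± 96.1 CPM in Control (SD, n = 2; adjusted p = 0.000907), and Itpr2 rose 1.82-fold, at 232 ± 11.1 CPM in PRC1 i2KO (SD, n = 3) and 128 ± 6.36 CPM in Control (SD, n = 2; adjusted p = 0.000179). Dropping Control replicate 3 left 1 rise and 3 falls, and 3 falls were also left on dropping Control replicate 1 or either of PRC1 i2KO replicates 1 and 2.

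Of 15 genes that hold NFAT back, 14 were tested, and 4 fell, none rose and 10 did not pass (median log2 fold change 0.07). Those that fell were the calcineurin inhibitors Rcan1 and Rcan3 and the scaffold genes Homer2 and Homer3, while the kinases that return NFAT to the cytoplasm (Gsk3a, Gsk3b, Dyrk1a, Dyrk1b, Dyrk2 and 3 casein kinase genes) did not pass. Rcan1, itself a known NFAT target, had 55.7, 65.0 and 70.3 CPM in PRC1 i2KO replicates 1, 2 and 3, against 108 and 89.1 CPM in Control replicates 1 and 3 (log2 fold change -0.62, edgeR adjusted p = 0.00517). Rcan3, Homer2 and Homer3 changed by -0.75, -0.60 and -1.04 on the log2 scale (adjusted p = 0.00569, 0.00792 and 0.0111). Dropping Control replicate 1 ended the calls of Rcan1 and Homer2 (adjusted p = 0.0524 and 0.0544), with 2 falls left, and dropping Control replicate 3 ended that of Homer3 (0.059). The call of Homer2 also ended on the TPM scales (limma adjusted p = 0.4015 on log2(TPM + 1) and 0.5016 with no filter). Its TPM overlapped between the groups, at 11.65, 18.14 and 19.83 in PRC1 i2KO replicates 1, 2 and 3, against 25.41 and 16.87 in Control replicates 1 and 3. Without PRC1 i2KO replicate 3, 2 genes of this list rose. Homer3 overlaps Ddx49 on the opposite strand in the GENCODE annotation M21, so its reads are uncertain.

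**Figure D4:**
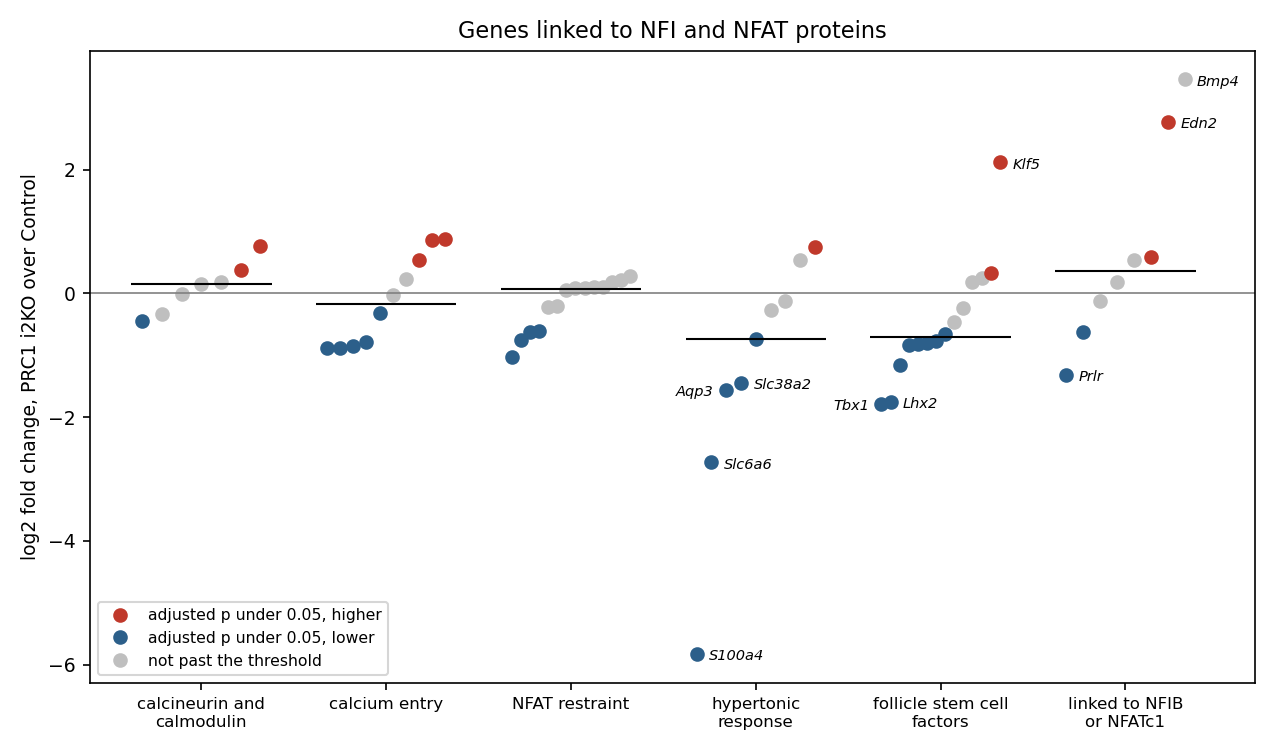
Log2 fold change (PRC1 i2KO over Control) of each tested gene in 6 lists linked to NFI and NFAT proteins; points are genes coloured by call, and lines are list medians. The hypertonic response and follicle stem cell lists have the lowest medians, at -0.74 and -0.71, and S100a4 is the lowest point at -5.83.

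Of 10 genes known to answer hypertonic stress, where NFAT5 acts, 9 were tested, of which 5 fell, 1 rose and 3 did not pass, with a median log2 fold change of -0.74. Aqp3, a water and glycerol channel of keratinocytes, had 368, 349.6 and 449 CPM in PRC1 i2KO replicates 1, 2 and 3, against 1102 and 1203 CPM in Control replicates 1 and 3, a 2.96-fold fall (edgeR adjusted p = 1.74e-05). Slc38a2, an amino acid transporter, averaged 1036 ± 48.0 CPM in PRC1 i2KO (SD, n = 3) and 2817 ± 679 CPM in Control (SD, n = 2), a 2.72-fold fall (adjusted p = 7.12e-05). Hspa4l, an Hsp110 chaperone, fell 1.67-fold (adjusted p = 0.00418), while Akr1b3, the aldose reductase that makes the osmolyte sorbitol, rose 1.68-fold (adjusted p = 0.00369). The list was thus not uniform, and the classical osmolyte transporters differed as well: Slc5a3, for inositol, did not pass (log2 fold change -0.13, adjusted p = 0.696), and Slc6a12, for betaine, had 0 reads in all libraries. Slc6a6, for taurine, and S100a4, a calcium-binding protein, are named after their values were seen. Slc6a6 had 246, 273 and 539 CPM in PRC1 i2KO replicates 1, 2 and 3, against 1954 and 2741 CPM in Control replicates 1 and 3 (log2 fold change -2.73, adjusted p = 0.00791), a call that ended on dropping Control replicate 3 (0.0625). S100a4 had 2.38, 5.59 and 12.4 CPM in PRC1 i2KO replicates 1, 2 and 3, against 372 and 439 CPM in Control replicates 1 and 3 (log2 fold change -5.83, adjusted p = 0.00646; -6.54 without PRC1 i2KO replicate 3).

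Of 14 transcription factors of follicle stem cells, among which NFI and NFAT proteins work, 8 fell, 2 rose and 4 did not pass, with a median of -0.71. Nr3c1, the glucocorticoid receptor gene, fell 1.77-fold to 293 ± 15.6 CPM in PRC1 i2KO (SD, n = 3), against 520.3 ± 66.4 CPM in Control (SD, n = 2; edgeR adjusted p = 0.000393). Tcf7l2, a WNT pathway factor, and Tle4, a corepressor, fell 1.57-fold and 1.75-fold (adjusted p = 0.00135 and 0.00228). Klf5, a factor of proliferating epithelia, rose 4.33-fold, with 259.6, 269 and 214 CPM in the PRC1 i2KO libraries (replicates 1, 2 and 3) and 72.6 and 43.0 CPM in the controls (replicates 1 and 3) (adjusted p = 0.000863). Runx1, the other gene that rose, is named after its value was seen (log2 fold change 0.33, adjusted p = 0.0363). On dropping either control 5 of the 14 fell, and 1 rose on dropping either control or PRC1 i2KO replicate 1 or 2.

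Of 8 skin genes linked in mouse work to NFIB or NFATc1, 2 rose, 2 fell (Prlr and Rcan1; Prlr alone on dropping Control replicate 1) and 4 did not pass, with a median of 0.36. Prlr, the prolactin receptor gene, which is tied to NFATc1 in bulge cells, had 162, 130.1 and 118 CPM in PRC1 i2KO replicates 1, 2 and 3, against 345 and 337 CPM in Control replicates 1 and 3, a 2.50-fold fall (edgeR adjusted p = 7.24e-05). Cdk4, a cell cycle kinase gene that NFATc1 is known to repress, had 149, 149 and 138 CPM in PRC1 i2KO replicates 1, 2 and 3, against 99.4 and 94.99 CPM in Control replicates 1 and 3, a 1.497-fold rise (adjusted p = 0.00163). Its exons overlap those of Tspan31 on the opposite strand in the GENCODE annotation M21, so some reads may belong to that gene. Edn2, which encodes endothelin 2 and is known to be restrained by NFIB, stayed low but rose to 5.49, 4.94 and 9.84 CPM in PRC1 i2KO replicates 1, 2 and 3, against 1.72 and 0.56 CPM in Control replicates 1 and 3 (log2 fold change 2.77, adjusted p = 0.00523). Dropping Control replicate 3 gave 1.97, and dropping Control replicate 1 gave 3.58. Melanocyte markers moved too: of 8, 6 were tested, and Kit, Dct and Sox10 rose and Mitf fell, with Dct at 15.8 ± 2.5 CPM in PRC1 i2KO (SD, n = 3) and 1.79 ± 0.276 CPM in Control (SD, n = 2). The 8 summed to 44.8 to 49.1 TPM in PRC1 i2KO and 78.2 to 87.4 TPM in Control, a sum that turns round without Mitf: the other 7 summed to 28.5 to 32.4 TPM in PRC1 i2KO and 6.01 to 7.0 TPM in Control. Tyr had 5, 6 and 6 reads in PRC1 i2KO replicates 1, 2 and 3 and 0 reads in both controls, and the part of these markers in the result was not tested.

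Genes whose pattern over the 5 libraries was most like that of Nfatc1 or Nfib were found by the root mean square difference of centred log2(CPM + 1) values, among 4135 genes averaging 5 CPM or more and differing by 0.5 or more on the log2 scale. Closest to Nfatc1 were Zfp3 (0.0497), Ttll3 (0.0556) and Adam15 (0.0577), a disintegrin and metalloproteinase gene; Ttll3 shares exons with Arpc4 in the GENCODE annotation M21, so its reads are uncertain. Adam15 had 53.0, 54.3 and 87.5 CPM in PRC1 i2KO replicates 1, 2 and 3, against 121.2 and 120.6 CPM in Control replicates 1 and 3, with the same intermediate replicate 3. Closest to Nfib were Armcx6 (0.0339), B3glct (0.0366), a glucosyltransferase gene, and Fignl2 (0.0378). B3glct had 11.0, 10.1 and 11.4 CPM in PRC1 i2KO replicates 1, 2 and 3, against 21.4 and 22.6 CPM in Control replicates 1 and 3. Zfp3 and Ttll3 did not pass the test themselves (edgeR adjusted p = 0.076 and 0.0678). The 1 added to CPM shrinks differences of low genes such as Zfp3, Ttll3 and Armcx6. Armcx6 had a fitted log2 fold change of -1.22, against -1.003 for Nfib. These likenesses rest on 5 libraries and describe a shape only.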

How the data were processed

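RNA of 50000 sorted cells per library was polyadenylate-selected and sequenced on an Illumina HiSeq, per the labels' protocols. The authors deposited expected counts and TPM per gene and library; fractional values show that the counts are estimates. Tools listed in the submitters' processing notes, without roles, are RSEM 1.3.3, STAR 2.7.9a and DESeq2 1.38.2, and the build is mm39; the annotation and any use of strand were not found there. Expected counts were rounded and tested with edgeR 4.0.16 (R 4.3.3): filterByExpr, TMM factors of 0.983 to 1.02, robust quasi-likelihood F test, genotype as the only term, all 5 libraries, Benjamini-Hochberg over all genes tested. CPM use the TMM scaling; intervals (95%) use the F test's degrees of freedom. The fit was also run on simulated counts with far fewer changed genes than were called here, and no result rests on that run. Alternatives were other scalings, filters, DESeq2 1.42.0, limma 3.58.1 on log2 TPM (pseudocount 1 or 0.1; mean of at least 1 TPM, or no filter), leaving out each library and the replicate number as a block. The members, lists and named genes were chosen with earlier results of these data known: the rule took all members, up to 4 called genes per list by adjusted p, and the 3 nearest genes to Nfatc1 and Nfib. For Control replicate 3 title and description disagree on the number, and its column was matched by title. Pairs of libraries within a group differed beyond counting error (chi-square over degrees of freedom from 9.8 to 39.0), and none were merged. Reads of near-identical or overlapping genes are uncertain.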

Additional observations from a re-analysis of the deposited data

How the results depend on the processing

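Nfib, Nfat5 and Nfatc2 were called in the same direction in all 15 alternatives run for each (log2 fold changes -1.10 to -0.95, -1.35 to -1.24 and 1.13 to 2.32). Nfia was lost in 2 alternatives and Nfatc4 in 2, all named above save Nfatc4 on unfiltered TPM (limma adjusted p = 0.0694). Nfatc1 was lost in 6: leaving out either control or PRC1 i2KO replicate 1 or 2, scaling by library totals (edgeR adjusted p = 0.0634) and the replicate block (0.087). Nfatc3 ranged from -0.21 to 0.039 with 1 library left out, the last without PRC1 i2KO replicate 3. Members called higher numbered 1 on log2(TPM + 0.1) and on unfiltered TPM, and members called lower ranged from 2 to 5 with 1 library left out. The median log2 fold change of the genes tested was -0.148 on log2(TPM + 1) and -0.16 on log2(TPM + 0.1), over 14438 genes, against -0.006 over 15665 genes in edgeR, and the split of calls differed: 1721 rose and 2101 fell on log2(TPM + 1), 1734 and 2014 on log2(TPM + 0.1) and 1410 and 1581 on unfiltered TPM, against 2939 rises and 2371 falls in edgeR. With 1 library left out, 1963 to 3099 genes rose and 1359 to 2757 fell. On those 3 TPM scales, calcineurin and calmodulin genes called higher numbered 1, 1 and 1, calcium entry genes 1, 1 and 0, and follicle stem cell factors 1, 1 and 1. Follicle stem cell factors called higher were also 1 with the replicate block and 1 without robust dispersions, and hypertonic response genes called higher were 2 with the replicate block. With 1 library left out, calcineurin genes called higher ranged from 1 to 3 and lower from 0 to 1, calcium entry genes higher from 1 to 3 and lower from 3 to 5, restraint genes higher from 0 to 2 and lower from 2 to 4, stem cell factors higher from 1 to 2 and lower from 5 to 9, and NFIB- or NFATc1-linked genes lower from 1 to 2. The labels do not say that equal replicate numbers pair libraries. Deviations from the group means correlated at 0.0737 and 0.115 for same-numbered libraries and at -0.115 to 0.0432 for the others. With 2 controls, whose deviations mirror each other, each value recurs with the opposite sign, so these values cannot decide on pairing. The block gave 2521 rises and 1900 falls and changed the call of no member but Nfatc1. Leaving out a control leaves 1, which is then assumed to vary like the PRC1 i2KO libraries. With 2 controls, differences within their spread were not detectable at this depth.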
